A study of Homo sapiens with 12 samples.

Results

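The genes described here are 46 genes of ribosome production in PC9, an established line from a human lung adenocarcinoma whose growth depends on its mutated EGFR. They were chosen by symbol from a list of RNA polymerase I subunits and factors, small nucleolar ribonucleoprotein proteins and nucleolar assembly factors, and all 46 were found among the 62754 gene identifiers of the deposited RNA-seq table. Sorted by role, the list held 6 RNA polymerase I genes, 3 box C/D and 5 box H/ACA genes, 5 nucleolar multifunctional proteins, 5 UTP-A proteins, 11 other small subunit factors and 11 large subunit factors. All 46 passed the filter on low counts, which 17115 genes passed in all.

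The table held 12 libraries in 4 groups of 3 cultures. Untreated WT cells carried wild-type TDP1 and received no drug. DTC (drug-tolerant cells) and DTEC (drug-tolerant expanded cells) were the same wild-type cells after 7 and 28 days in 1 µM erlotinib, an inhibitor of EGFR. KO cells were likewise untreated and lacked TDP1 through knockout (line KO2, the only knockout line in the table). TDP1 is the enzyme that removes trapped topoisomerase I from DNA. All cells came from one subclonal PC9 line, the cultures were split from a shared flask and then kept apart, and each p-value below therefore measures the spread between such sister cultures.

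Ribosome production starts in the nucleolus, where RNA polymerase I copies the ribosomal DNA into one long precursor RNA. UBTF holds the ribosomal genes open, and RRN3 brings the polymerase to the promoter. Small nucleolar ribonucleoproteins then mark bases of the precursor: box C/D particles add methyl groups through fibrillarin (FBL), and box H/ACA particles make pseudouridine through dyskerin (DKC1). Other assembly factors fold, cut and pack the precursor with ribosomal proteins into the small and the large subunit. The mRNAs of these factors are known to rise and fall with growth signalling. Poly(A) RNA-seq measures these mRNAs and not the ribosomal RNA itself.

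Library totals ran from 25572691 to 38373679 estimated counts. TDP1 mRNA stood at 26.3 ± 1.60 CPM (counts scaled to library size with TMM factors; ± is the SD, n = 3 throughout) in untreated WT and 10.8 ± 0.647 in KO, and at 14.0 ± 1.55 in DTC and 26.6 ± 1.54 in DTEC. The 5 epithelial markers summed to 4465 to 5022 CPM in DTC and 7480 to 10260.1 in the other groups, while 3 lung adenocarcinoma markers (NKX2-1, NAPSA, SFTPB) summed to only 1.21 to 2.46 CPM in untreated WT and DTC, 5.51 to 7.54 in KO and 12.3 to 17.5 in DTEC. The 5 fibroblast markers summed to 54.9 to 57.6 CPM in DTC and to 7.99 to 15.1 in the other groups. The 3 endothelial markers did not overlap between groups, with DTC lowest (41.9 to 49.5 CPM), then untreated WT (58.5 to 61.4), KO (75.7 to 77.2) and DTEC (122 to 142). The 5 leukocyte markers summed to 25.9 to 54.2 CPM over all 12 libraries, and no marker was at 0 in every library. The part of these markers in the results below was not tested. DTC replicate 1 differed from its sister libraries along exon length: its log2 deviations rose by 0.593 per 10-fold of length, against -0.338 and -0.254 in the other DTC libraries. DTEC replicate 3 had a slope of -0.224, against 0.128 and 0.0957 in the other DTEC libraries. Deviations were taken from each group's mean, so the slopes of sister libraries are not independent of one another. DTC replicate 1 and DTEC replicate 3 are called the length-trend libraries below because they stood apart from their sisters, not because only they had a slope.

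All 46 genes were lower in DTC than in untreated WT, and most were partly back in DTEC. Their mRNAs together held 1.09% ± 0.0463 of a library's counts in untreated WT. They held 0.416% ± 0.0248 in DTC and 0.642% ± 0.00782 in DTEC, and KO had 1.00% ± 0.0238. Cytosolic ribosomal protein genes, 79 in number, held 5.96% ± 0.203 in untreated WT, 5.60% ± 1.83 in DTC (overlapping the untreated libraries), 7.09% ± 0.485 in DTEC and 5.42% ± 0.178 for KO. Counts in bulk RNA are relative, and fewer cells of a type and less RNA per cell cannot be told apart in them.

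In DTC against untreated WT, 46 of 46 genes were called lower (edgeR quasi-likelihood test, Benjamini-Hochberg adjusted p under 0.05 over all 17115 genes), where 33.3% of all tested genes were called lower. A fall of at least 2-fold was called for 43 of the 46, against 13.9% of all genes. In all 46 the 3 DTC libraries lay below the 3 untreated libraries, which held for 33.8% of all genes. The median log2 fold change was -1.67 over the 46 and 0.06 over all genes. Well-expressed genes fell more often than others: of the 7789 genes with a mean at or above that of the lowest member, GAR1 (20.7 CPM), 54.1% were called lower, with a median of -0.39.

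In DTEC against untreated WT, 43 of the 46 were called lower, where 26.3% of all genes were called lower. Only 17 were called at 2-fold or more, against 6.70% of all genes. The DTEC libraries still lay below the untreated ones in all 46 (31.3% of all genes), and the median was -0.91, against 0.02 over all genes. RRN3, NOP10 and HEATR1 were the 3 that did not pass the test, but HEATR1 passed in 5 of 15 alternative analyses and NOP10 in 3. Without untreated WT replicate 1 the calls of GAR1 and DDX10 ended too (adjusted p = 0.0706 and 0.0614). Among the 7789 well-expressed genes, 39.9% were called lower, with a median of -0.17.

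Between the drug time points, 40 of the 46 were called higher in DTEC than in DTC and none lower, where 28.8% of all genes were called higher and 26.6% lower. The rise reached 2-fold in 16 of them (8.10% of all genes), and the libraries did not overlap in 40 (29.0%). The median was 0.76, against -0.01 over all genes and 0.22 over the 7789 well-expressed genes, of which 44.7% were called higher. The 6 genes that did not pass were NHP2, NOP10, UTP15, NOL6, PNO1 and PPAN, the last of which passed without DTEC replicate 1 (adjusted p = 0.0363). DTC and DTEC were both read against the same untreated libraries, so these counts are not independent of each other.

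**Figure D1:**
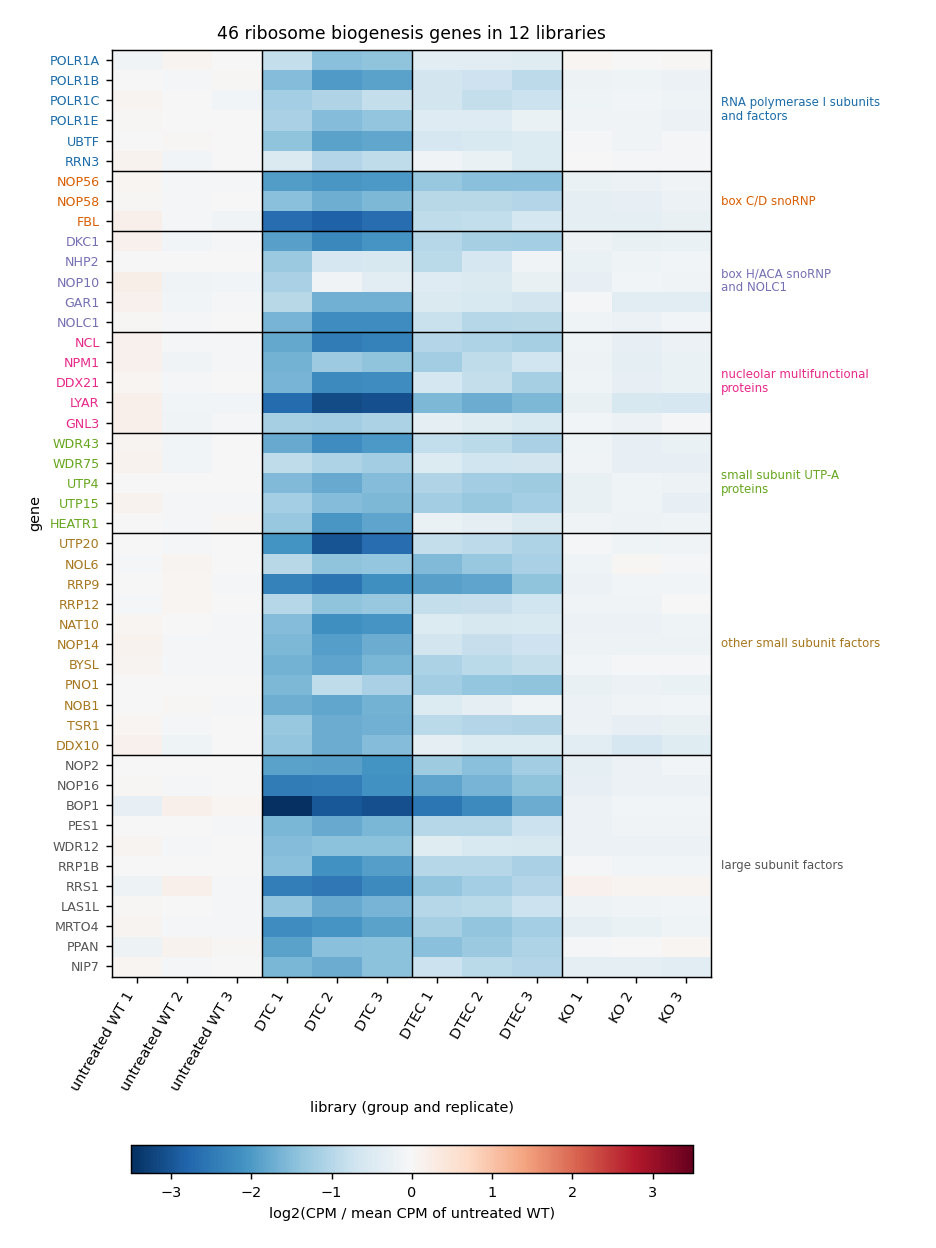
Each cell is the log2 ratio of 1 gene's CPM in 1 library to its mean CPM over the 3 untreated WT libraries; rows are the 46 genes sorted by role, columns the 12 libraries, with blue below and red above 0. The 3 DTC columns are blue in nearly every row, the DTEC columns are paler, and the KO columns are close to white, with median log2 ratios of -0.18, -0.18 and -0.15 in the 3 KO libraries.

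The members' promoters were searched for CACGTG, the E-box letters that MYC and related helix-loop-helix factors bind. Windows of 300 bases, 250 before to 50 after the RefSeq start, were available for 39 of the 46 genes (9 of them with 2 windows). NOP58, NOLC1, POLR1E, BOP1, RRP1B, RRP12 and RRS1 had none. The letters read the same on both strands. They stood in 18 of the 39 genes (46.2%), against 8.77% of all 27305 genes with such a window and 11.97% of the 11889 tested genes with one. Of 2 motifs searched for comparison, CAGCTG stood in 20.5% of the members, 21.1% of all genes and 22.4% of the tested genes, and GACGTC in 7.69%, 6.09% and 9.18%. A match to CAGCTG cannot overlap one to CACGTG, and one to GACGTC can share only an end base with it. The 6 stretches below belong to the 6 members with the largest fall in DTC among those that held the letters, and show how close to the start they stand. Each is 30 bases on the gene's strand, 5′ to 3′, from RefSeq on GRCh38.p14, with CACGTG in capitals.
LYAR: cggcggcgagtcCACGTGctccccgcggcc
FBL: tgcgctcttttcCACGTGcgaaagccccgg
UTP20: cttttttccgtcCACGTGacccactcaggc
RRP9: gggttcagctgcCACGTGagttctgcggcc
MRTO4: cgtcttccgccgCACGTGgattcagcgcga
DDX21: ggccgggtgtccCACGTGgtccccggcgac

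The LYAR stretch lay at chr4:4290068-4290097 on the minus strand, with its motif starting at -64, that is 64 bases before the RefSeq start. The FBL stretch lay at chr19:39846356-39846385 on the minus strand, with the motif starting at 6, where 0 is the first base at the start. The motif of UTP20 (chr12:101280083-101280112, plus strand) began at -10, that of RRP9 (chr3:51941892-51941921, minus strand) at -5, that of MRTO4 (chr1:19251807-19251836, plus strand) at 14 and that of DDX21 (chr10:68956604-68956633, plus strand) at -31. In GENCODE 29 all 30 bases of the LYAR, FBL, RRP9, MRTO4 and DDX21 stretches fell in an exon of the same gene, while in UTP20 only the last 4 did.

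Of the 19 CACGTG matches in member windows, 17 (89.5%) lay within 50 bases of the start, a zone that makes up 33.3% of the window. Over all windows 36.9% of the matches lay there, and over those of tested genes 38.7%. By role, the letters stood in 0 of 5 RNA polymerase I genes, 1 of 2 box C/D genes, 2 of 4 H/ACA genes, 3 of 5 nucleolar proteins, 2 of 5 UTP-A proteins, 7 of 10 other small subunit factors and 3 of 8 large subunit factors with a window. The fall in DTC had a median of -1.81 in the 18 genes with the letters and -1.58 in the 21 without, with ranges of -2.96 to -0.48 and -2.32 to -0.77 that overlapped. In DTEC against DTC the medians were 0.77 and 0.69. A match to 6 letters does not show that a factor binds there, and binding was not measured.

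**Figure D2:**
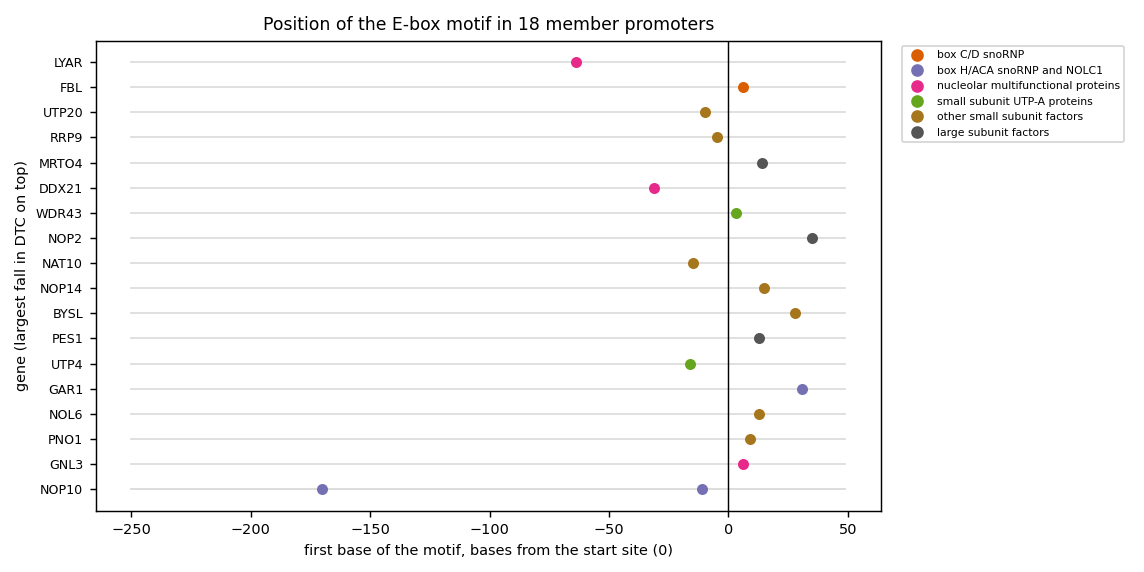
Each point is the first base of a CACGTG match, in bases from the RefSeq start (0), for the 18 members whose window held one; the grey line is the 300-base window, colours mark roles, and genes with the largest fall in DTC are on top. The points gather around 0, with 17 of 19 within 50 bases; NOP10 holds a second match at -170.

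The RNA polymerase I genes fell in DTC and rose again in DTEC, with the second largest subunit and the promoter factor UBTF moving most. All 6 (POLR1A, POLR1B, POLR1C, POLR1E, UBTF, RRN3) were called lower in DTC, with a median log2 fold change of -1.27, 5 of 6 in DTEC with a median of -0.46, and all 6 were called higher in DTEC than in DTC. POLR1B (chr2:112541915-112577150, the coordinates of these genes being those of GENCODE 29 on GRCh38), which forms the catalytic core with POLR1A, read 129.8, 125 and 131 CPM in the untreated libraries, 44.7, 32.2 and 35.0 in DTC and 82.5, 78.3 and 68.6 in DTEC. Its 3 groups did not overlap. The log2 fold change was -1.79 (SE 0.120, adjusted p = 1.26e-08) in DTC and -0.75 (SE 0.116, adjusted p = 9.97e-05) in DTEC. UBTF (chr17:44205033-44221626) gave 175, 184 and 176 CPM in untreated WT, 66.7, 49.1 and 50.1 in DTC and 119, 124 and 129 in DTEC, which left 31.0% and 69.4% of the untreated mean in the drug groups. Its changes were -1.69 (SE 0.114, adjusted p = 1.27e-08) in DTC and 1.16 (SE 0.112, adjusted p = 1.09e-06) from DTC to DTEC.

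RRN3 (chr16:15060022-15094317), the factor that recruits the polymerase, changed least of these genes against untreated WT, while POLR1C changed least from DTC to DTEC. It read 123, 105 and 111 CPM in untreated WT, 79.6, 55.1 and 61.1 in DTC and 103, 95.8 and 81.9 in DTEC. Its DTC libraries were all below the untreated ones (-0.79, SE 0.132, adjusted p = 9.58e-05), and its DTEC libraries also lay below them, the highest by little, but did not pass the test (-0.27, SE 0.131, adjusted p = 0.0952). RRN3 has close pseudogene copies and none of its 12 deposited values was whole, so reads were shared out between features and its level is uncertain. The calls of POLR1A and POLR1E in DTEC against untreated WT (-0.39, SE 0.136, adjusted p = 0.0283 and -0.38, SE 0.111, adjusted p = 0.0107) were close to the threshold. Leaving out single libraries ended the call of POLR1A for untreated WT replicates 2 and 3 (adjusted p = 0.124 and 0.0866) and for each DTEC replicate in turn (0.0759, 0.0828 and 0.0718). For POLR1E it ended without untreated WT replicate 1 (0.0554) and without DTEC replicate 1 or 2 (0.0649 and 0.0672). The rise of POLR1C from DTC to DTEC (0.28, SE 0.105, adjusted p = 0.0334) lost its call in 12 of 15 alternative analyses, and its adjusted p ran from 0.0170 to 0.584 over them. Among those were the fits without DTC replicate 1 (0.108), DTC replicate 2 (0.124) and DTEC replicates 1, 2 and 3 (0.135, 0.0513 and 0.0955). These 3 genes were singled out after their values were seen.

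Of 9 further RNA polymerase I genes on a list that held no member, 7 were called lower and none higher in DTC (median -0.90), 6 and 0 in DTEC, and 0 and 6 between DTC and DTEC. POLR1G, a subunit found only in RNA polymerase I, had the largest change of them, -2.00 (adjusted p = 1e-09) in DTC. Subunits of the other polymerases had smaller medians in DTC: the 7 RNA polymerase II genes were all called lower in DTC with a median of -0.53, and 7 of 11 RNA polymerase III genes were called lower and 1 higher with a median of -0.61. POLR3G, a form of an RNA polymerase III subunit known from stem and tumour cells, was the exception in size with -2.49 (adjusted p = 8.13e-09). Of 5 subunits that RNA polymerase I shares with the others, 3 were called lower and 1 higher. In DTEC this order did not hold for the RNA polymerase II genes (median -0.61, 6 of 7 called lower) and the shared subunits (-0.79). The median was -0.58 in the 9 further RNA polymerase I genes and -0.46 in the 6 members. The RNA polymerase III genes still had a smaller one, -0.36, with 7 of 11 called lower and 1 higher. Of the 7789 well-expressed genes 54.1% were called lower in DTC (median -0.39) and 39.9% in DTEC (median -0.17).

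Of the box C/D proteins, FBL had both the largest fall in DTC and the largest rise after it. All 3 were called lower in DTC and in DTEC and higher in DTEC than in DTC. FBL (chr19:39834458-39846414), the methyltransferase, read 331, 278 and 269 CPM in untreated WT, 45.96, 40.9 and 46.4 in DTC, 157, 162 and 190.4 in DTEC and 237, 235 and 247 in KO. The DTC libraries kept 15.2% of the untreated mean and the DTEC libraries 58.1%, with no overlap between any of these 3 groups. The log2 fold change was -2.72 (SE 0.115, adjusted p = 2.13e-10) in DTC and 1.94 (SE 0.112, adjusted p = 7.7e-09) from DTC to DTEC, the largest rise of the 46.

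NOP56 (chr20:2652145-2658393), a core scaffold protein of the particle, read 469, 430.5 and 434 CPM in untreated WT, 116, 108 and 111 in DTC and 176, 161 and 162 in DTEC. Its log2 fold change was -1.99 (SE 0.0896, adjusted p = 3.34e-10) in DTC and 0.57 (SE 0.0869, adjusted p = 7.27e-05) from DTC to DTEC, with the DTEC libraries still far below the untreated ones. NOP58 (chr2:202265716-202303666), its paired scaffold, read 146, 136 and 145 CPM in untreated WT, 51.8, 43.6 and 47.6 in DTC and 73.1, 72.8 and 69.5 in DTEC. Its changes were -1.58 (SE 0.0923, adjusted p = 3.52e-09) in DTC and 0.59 (SE 0.0909, adjusted p = 8.61e-05) between the time points.

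Box H/ACA proteins were uneven. DKC1 and NOLC1 had the largest changes in DTC, and the small core protein NOP10 the smallest of all 46. All 5 were called lower in DTC (median -1.40), 4 in DTEC, and 3 were called higher in DTEC than in DTC. DKC1 (chrX:154762742-154777689), the pseudouridine synthase, read 480.2, 406 and 417 CPM in untreated WT, 116, 91.7 and 104 in DTC and 219.5, 194 and 191 in DTEC (-2.06, SE 0.112, adjusted p = 1.76e-09 in DTC, 23.9% of the untreated mean). NOLC1 (chr10:102152176-102163871), a nucleolar chaperone of these particles, read 353, 334 and 336 CPM in untreated WT, 110.4, 75.0 and 76.1 in DTC and 198, 172 and 174 in DTEC. Its change was -1.97 (SE 0.136, adjusted p = 1.65e-08) in DTC and 1.05 (SE 0.133, adjusted p = 1.42e-05) from DTC to DTEC, with no overlap of the 3 groups.

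NOP10 (chr15:34341713-34343177) read 55.7, 44.6 and 45.3 CPM in untreated WT, 22.3, 44.4 and 37.4 in DTC, 35.7, 34.0 and 40.6 in DTEC and 39.7, 45.1 and 44.6 in KO. Its DTC libraries spanned a 2-fold range, with replicate 1 lowest. The change in DTC was -0.48 (SE 0.190, adjusted p = 0.0374), and the call was lost in 8 of 15 alternative analyses, with an adjusted p from 0.000749 to 0.568. Those included the fits without DTC replicate 1 (log2 fold change -0.21, adjusted p = 0.123), DTC replicate 3 (0.0575), untreated WT replicate 1 (0.158) and untreated WT replicate 3 (0.0510). Its change from DTC to DTEC, 0.08, turned negative in 5 of the 15, total-count and upper-quartile scaling among them, and was called higher in 1. NOP10 has the shortest exon span of the 46, 554 bases, and NHP2, the next shortest at 1510 bases, read 42.7, 70.7 and 72.0 CPM in DTC and 55.1, 70.6 and 96.1 in DTEC, with DTC replicate 1 low and DTEC replicate 3 high. These are the length-trend libraries named above. In a further fit, a curve along exon length was removed from each library, drawn from deviations from the mean of all 12 libraries. It took out differences between groups along length and in general level, not only those between sister libraries. There both genes were called higher in DTEC than in DTC, NOP10 by 0.43 (adjusted p = 0.00125) and NHP2 by 0.36 (adjusted p = 0.0227). With DTC replicate 1 and DTEC replicate 3 left out instead, the differences were -0.25 and -0.20 (adjusted p = 0.0662 and 0.0819). NHP2, chosen here after its values were seen, was called lower in DTC (-0.77, SE 0.199, adjusted p = 0.00353) and in DTEC (-0.51, SE 0.198, adjusted p = 0.0430), but the DTC call was lost with total-count and upper-quartile scaling (-0.41 and -0.48, adjusted p = 0.0784 and 0.0564), and the DTEC call in 9 of 15 alternatives. Among the latter were the fits without untreated WT replicate 1, 2 or 3 (adjusted p = 0.102, 0.0915 and 0.101) and those without DTEC replicate 1 or 2 (0.205 and 0.135).

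**Figure D3:**
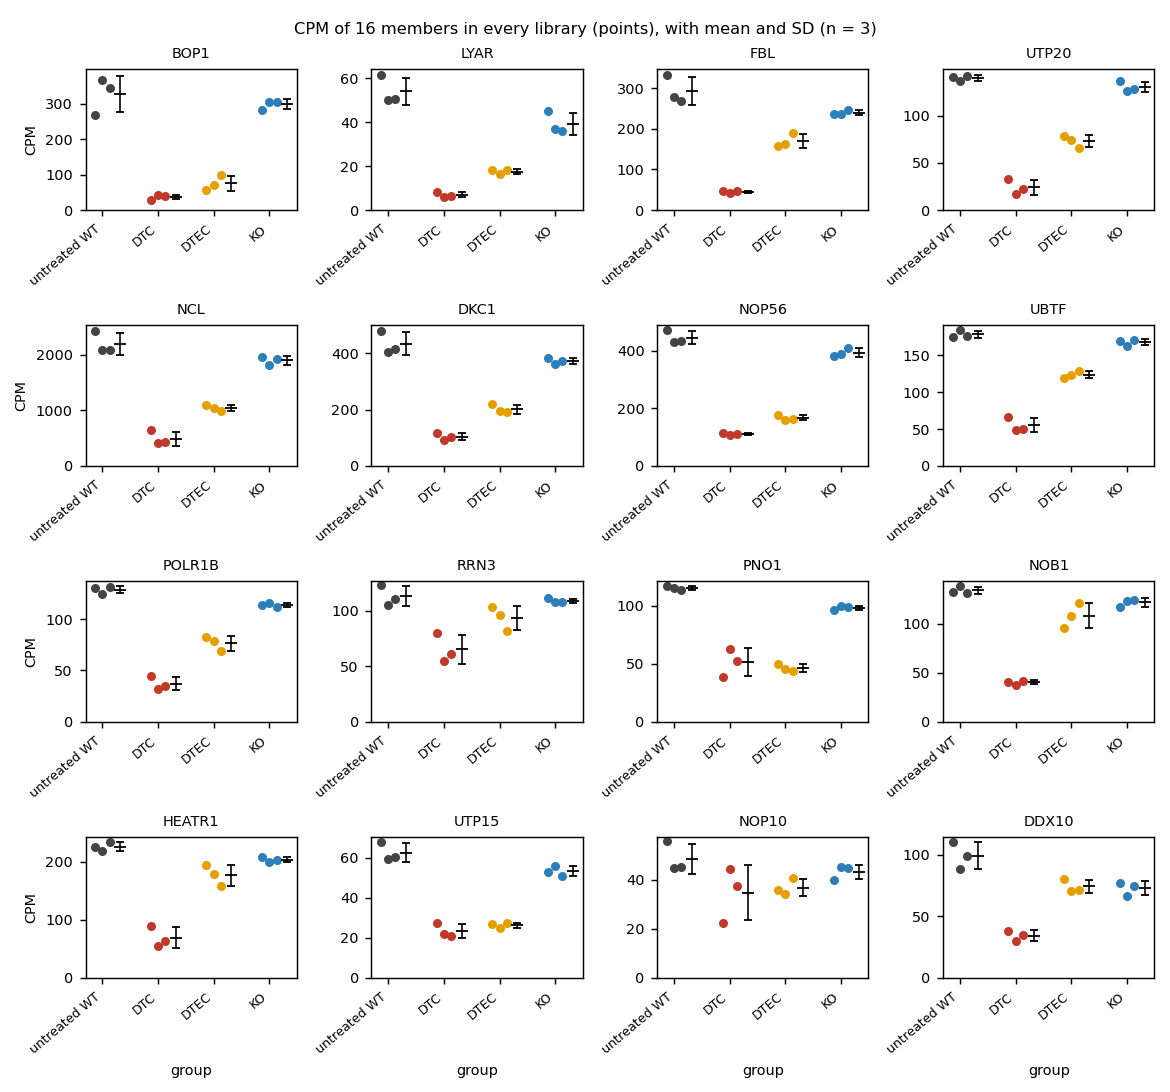
CPM (vertical axis, from 0) of 16 of the 46 genes in each of the 12 libraries; points are libraries, and the bar beside each group is the mean with its SD (n = 3). In BOP1, LYAR, FBL and UTP20 the DTC points lie far below the untreated ones and the DTEC points between them; in PNO1 and UTP15 the DTC and DTEC points lie at about the same height.

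The multifunctional nucleolar proteins include the most abundant mRNAs of the set and fell strongly. Per kilobase of exon, NPM1 stood at 637 ± 64.5 CPM in untreated WT and NCL at 318 ± 28.6, followed by DDX21 at 170.1 ± 9.18, FBL at 135 ± 15.6 and DKC1 at 103 ± 9.52. The lowest were WDR12 at 6.44 ± 0.371, UTP15 at 9.89 ± 0.740 and POLR1E at 10.8 ± 0.237. Neighbours among these 5 highest differed by more than their SDs added together, while UTP15 and POLR1E did not, and DKC1 did not from BOP1, the next below it at 88.3 ± 14.0. The length used was the union of all annotated exons, 9098 bases for WDR12 and 2512 for POLR1E, and the order rests on it. Before division by length WDR12 stood above POLR1E in untreated WT, with 62.2, 55.4 and 58.1 CPM against 27.8, 27.0 and 26.6. NPM1 and NCL together made up 38.2% ± 1.57 of the members' counts in untreated WT and 37.4% ± 0.952 in KO, and the drug groups gave 38.7% ± 2.40 (DTC) and 36.7% ± 2.31 (DTEC). All 5 of this group (NCL, NPM1, DDX21, LYAR, GNL3) were called lower in DTC and in DTEC and higher in DTEC than in DTC. The rise of NPM1 lost its call with total-count and upper-quartile scaling (0.33 and 0.34, adjusted p = 0.0554 and 0.0576).

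LYAR (chr4:4267701-4290169), a zinc finger protein that promotes precursor processing, read 61.2, 50.02 and 50.7 CPM in untreated WT, 8.28, 6.12 and 6.39 in DTC, 18.0, 16.3 and 18.2 in DTEC and 44.9, 36.9 and 35.9 in KO. All 4 groups were apart from one another. It kept 12.8% of the untreated mean in DTC and 32.4% in DTEC (-2.96, SE 0.144, adjusted p = 6.55e-10 and -1.62, SE 0.135, adjusted p = 3.19e-07). NCL (chr2:231453531-231483641), nucleolin, which binds the precursor RNA and ribosomal chromatin, read 2432, 2092 and 2086 CPM in untreated WT, 640.1, 407 and 430.1 in DTC and 1091, 1040.3 and 991 in DTEC. It fell by more than 4-fold (-2.16, SE 0.152, adjusted p = 1.94e-08) and regained a log2 step of 1.08 (SE 0.147, adjusted p = 2.86e-05). GNL3 (chr3:52681156-52694492), nucleostemin, changed least here, from 147, 119 and 124 CPM in untreated WT to 58.6, 56.2 and 59.8 in DTC and 102, 97.4 and 90.4 in DTEC. Its 3 groups still did not overlap (-1.16, SE 0.100, adjusted p = 1.53e-07 in DTC, -0.43, SE 0.0987, adjusted p = 0.00222 in DTEC). With the exon length trend removed its DTEC call ended (-0.19, adjusted p = 0.121). NPM1 was called lower in DTC (-1.44, SE 0.140, adjusted p = 4.96e-07), but none of its values was whole and it has many processed pseudogenes, so its level is uncertain.

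The UTP-A proteins, the subcomplex that first loads onto the precursor and is also needed for its transcription, split in DTEC. All 5 (WDR43, WDR75, UTP4, UTP15, HEATR1) were called lower in DTC, with a median of -1.61, 4 of 5 in DTEC, and 4 of 5 were called higher in DTEC than in DTC. WDR43 (chr2:28894643-28948222) read 300.4, 263 and 285 CPM in untreated WT, 83.0, 62.7 and 69.6 in DTC and 157, 147 and 128 in DTEC (-1.98, SE 0.119, adjusted p = 4.62e-09 and -0.98, SE 0.116, adjusted p = 8.75e-06). HEATR1 (chr1:236549005-236604504) read 225, 218 and 233 CPM in untreated WT, 89.6, 54.8 and 63.2 in DTC and 193, 178 and 158 in DTEC. Its DTC libraries were far below the others (-1.71, SE 0.148, adjusted p = 1.66e-07), and DTEC came back to 78.2% of the untreated mean (-0.36, SE 0.144, adjusted p = 0.0515). WDR75 (chr2:189441433-189475565), with the smallest fall of the group, read 75.9, 65.5 and 69.5 CPM in untreated WT, 37.8, 33.4 and 30.1 in DTC and 50.6, 43.3 and 44.7 in DTEC (-1.06, SE 0.109, adjusted p = 8.82e-07 in DTC).

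UTP15 (chr5:73565443-73583377), singled out after its values were seen, read 67.9, 59.2 and 60.5 CPM in untreated WT, 27.4, 21.7 and 21.0 in DTC and 26.7, 24.9 and 27.3 in DTEC. It stayed at 42.0% of the untreated mean in DTEC, and its DTC and DTEC libraries overlapped. The difference between the time points was 0.17 (SE 0.112, adjusted p = 0.209). It was slightly negative with total-count scaling (-0.02), and it passed the test without DTC replicate 1 (0.28, adjusted p = 0.0158).

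Other small subunit factors were all called lower at both time points, and they differed among themselves in how far they came back. All 11 were called lower in DTC (median -1.70) and in DTEC (median -0.94), and 9 were called higher in DTEC than in DTC. UTP20 (chr12:101280109-101386616), a large scaffold protein of the early particle, read 140.4, 137 and 142 CPM in untreated WT, 32.8, 17.2 and 21.9 in DTC and 78.4, 74.2 and 66.1 in DTEC. It kept 17.2% of the untreated mean in DTC (-2.55, SE 0.178, adjusted p = 2.01e-08) and 52.2% in DTEC, a rise of 1.61 (SE 0.173, adjusted p = 3.45e-06). RRP9 (chr3:51933430-51941941), the U3-specific protein, read 62.4, 67.1 and 60.8 CPM in untreated WT, 12.4, 10.7 and 14.3 in DTC and 17.1, 17.5 and 23.9 in DTEC. Its change was -2.34 (SE 0.140, adjusted p = 4.46e-09) in DTC, and it stayed low in DTEC (-1.70, SE 0.136, adjusted p = 2.42e-07).

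PNO1 (chr2:68157844-68176238), which sits where the last cut of the small subunit RNA is made, read 117, 115 and 114 CPM in untreated WT, 38.8, 62.4 and 52.8 in DTC and 50.1, 45.1 and 43.8 in DTEC. The drug groups overlapped, and it was not called higher in DTEC (-1.32, SE 0.136, adjusted p = 2.52e-06 against untreated WT) than in DTC (-1.17, SE 0.136, adjusted p = 3.02e-06). Without DTC replicate 1, the lowest, it was called lower in DTEC than in DTC (-0.33, adjusted p = 0.00329), against -0.15 (SE 0.135, adjusted p = 0.372) with it. PNO1 was also called lower with total-count scaling and all libraries kept (-0.33, adjusted p = 0.0476). The call came too without both length-trend libraries (-0.29, adjusted p = 0.00648), which made 3 of 15 alternatives. NOB1 (chr16:69741867-69754940), the nuclease that makes that cut, was singled out after its values were seen. It read 133, 139 and 131 CPM in untreated WT, 41.1, 37.9 and 42.2 in DTC and 95.6, 108 and 122 in DTEC, so DTEC had come back to 80.9% of the untreated mean. Its rise from DTC to DTEC was 1.43 (SE 0.101, adjusted p = 5.78e-08). Its call against untreated WT in DTEC (-0.31, SE 0.0982, adjusted p = 0.0176) was lost in 9 of 15 alternatives, including each fit without 1 untreated library (adjusted p = 0.0644, 0.0951 and 0.0630) and those without DTEC replicate 1 or 2 (0.140 and 0.0824). Another was the fit with the exon length trend removed, where the change was 0.01 (adjusted p = 0.935). NOL6, also singled out, kept 42.5% of its untreated mean in DTC and 39.7% in DTEC. Its time points did not pass the test (-0.10, SE 0.130, adjusted p = 0.548), and the difference was 0.04 without DTC replicate 1. With the exon length trend removed NOL6 was called lower in DTEC than in DTC (-0.31, adjusted p = 0.0389).

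Large subunit factors held the largest fall of the 46. All 11 were called lower in DTC with a median of -1.81, all 11 in DTEC with a median of -1.18, and 10 were called higher in DTEC than in DTC. BOP1 (chr8:144262102-144291370), a member of the PeBoW complex with PES1 and WDR12, read 269.6, 369 and 346 CPM in untreated WT, 29.3, 41.9 and 38.6 in DTC, 56.6, 69.8 and 98.6 in DTEC and 283, 307 and 306 in KO. It kept 11.2% of the untreated mean in DTC and 22.9% in DTEC (-3.16, SE 0.201, adjusted p = 1.09e-08 and -2.13, SE 0.192, adjusted p = 9.5e-07), and the 3 groups did not overlap. RRS1 (chr8:66429028-66430733), which helps to place the 5S particle, read 46.4, 59.9 and 51.5 CPM in untreated WT, 9.83, 9.24 and 11.3 in DTC and 20.3, 23.3 and 25.8 in DTEC (-2.38, SE 0.127, adjusted p = 1.51e-09 and -1.18, SE 0.121, adjusted p = 2.22e-06). WDR12 (chr2:202874782-203014798) had the smallest fall of this group, from 62.2, 55.4 and 58.1 CPM in untreated WT to 20.6, 21.7 and 21.5 in DTC and 43.8, 40.3 and 39.8 in DTEC. Its change was -1.46 (SE 0.0880, adjusted p = 4.68e-09) in DTC and -0.50 (SE 0.0858, adjusted p = 0.000213) in DTEC. PPAN shares a read-through transcript with its neighbour P2RY11, and neither it nor NOP2 and RRP12 had a whole value, so those levels are uncertain too.

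**Figure D4:**
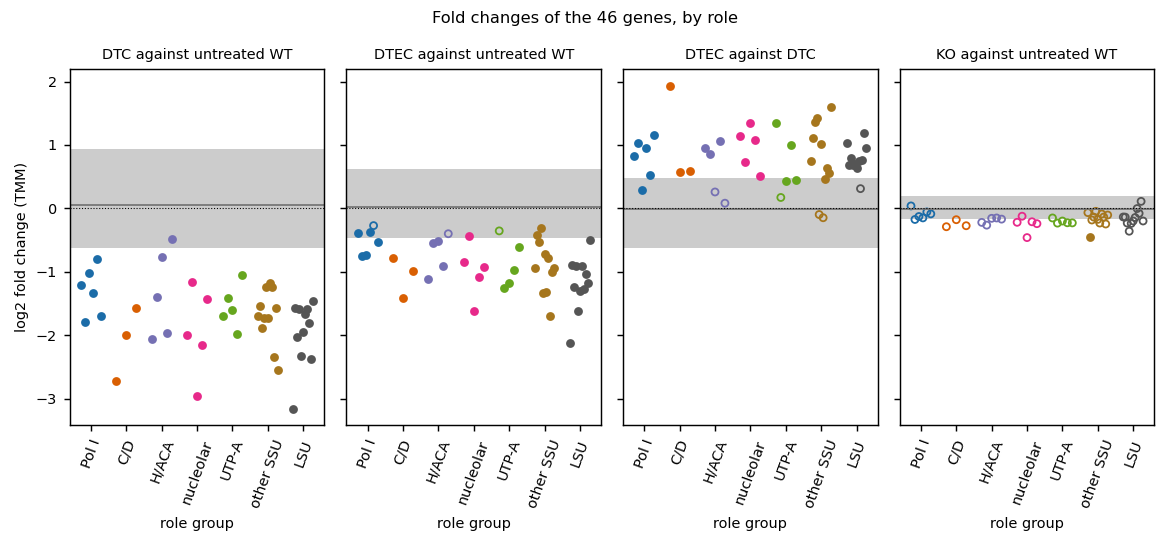
Log2 fold changes (vertical axis, TMM scaling) of the 46 genes in 4 comparisons, by role group; filled points were called (adjusted p under 0.05), open points were not. The grey band is the middle 50% of all 17115 genes and the grey line their median. The DTC points all lie below 0, and 45 open points fill the KO panel.

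Assembly factors outside the 46 moved in the same direction with smaller medians. Of 38 further small subunit factors, 35 were called lower and none higher in DTC (median -1.18), 35 and 0 in DTEC, and 1 lower and 23 higher in DTEC against DTC. WDR3, a small subunit processome protein, had the largest change in DTC, -2.03 (adjusted p = 8.97e-08). Of 39 further large subunit factors, 34 were called lower and 1 higher in DTC (median -1.09), 32 and 0 in DTEC, and 1 lower and 20 higher between the time points. RRP1 had the largest change in DTC, -2.27 (adjusted p = 3.03e-10), and ZNHIT3 was the one called higher, 0.54 (adjusted p = 0.0374). Of 12 exosome genes, which code for the nuclease that trims the precursor, 10 (83.3%) were called lower at each time point. From DTC to DTEC 5 of them were called higher (41.7%, median 0.21). That share was 60.5% (median 0.48) in the 38 small subunit factors and 51.3% (median 0.30) in the 39 large subunit ones. Of the well-expressed genes 44.7% were called higher (median 0.22), and of all genes 28.8%. Called lower were 54.1% of the well-expressed genes in DTC and 39.9% in DTEC, against 33.3% and 26.3% of all genes.

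Ribosomal proteins themselves kept closer to the untreated level. Of 79 genes, 38 (48.1%) were called lower and none higher in DTC, with a median of -0.45. Of all genes 33.3% were called lower there, and of the 7789 well-expressed genes 54.1%, with a median of -0.39. In DTEC 2 were called lower and 6 higher with a median of 0.05, where 26.3% of all genes were called lower. From DTC to DTEC 44 (55.7%) were called higher, with a median of 0.49. There 28.8% of all genes were called higher, and 44.7% of the well-expressed ones, with a median of 0.22. RPS2 had the largest change in DTC, -1.43 (adjusted p = 4.18e-07). These mRNAs are short, and their summed share ran from 3.61% in DTC replicate 1 to 7.22% in DTC replicate 2, which are the ends of the length trend. Its part was not tested.

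In KO against untreated WT the genes were slightly lower on the whole, and 1 was called. Of the 46, 44 had a log2 fold change below 0 (51.7% of all genes), with a median of -0.17 against -0.01 over all genes and -0.05 over the 7789 well-expressed genes. In 34 of the 46 the 3 KO libraries lay below the 3 untreated libraries, where this held for 19.9% of all genes and 30.3% of the well-expressed ones. DDX10 was called lower by edgeR (1.55% of all genes were), and 8 genes had an unadjusted p under 0.05 in that direction (7.44% of all genes). The largest role medians were -0.27 in box C/D and -0.23 in UTP-A genes, and no member was called at 2-fold (0.339% of all genes).

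DDX10 (chr11:108665025-108940930), a helicase of the small subunit pathway, read 110.5, 88.7 and 98.7 CPM in untreated WT and 77.4, 66.3 and 74.6 in KO. The groups did not overlap, and the change was -0.45 (SE 0.116, adjusted p = 0.0437). The call was lost in 8 of 15 alternatives, among them each fit without 1 library of either group. The adjusted p was 0.258, 0.0649 and 0.163 without untreated WT replicate 1, 2 or 3, and 0.113, 0.238 and 0.164 without KO replicate 1, 2 or 3. LYAR, at 44.9, 36.9 and 35.9 CPM in KO, had a change of -0.46 (SE 0.130, adjusted p = 0.0642) and passed the threshold in 5 of 15 alternatives. NIP7, a large subunit factor, read 122, 111 and 115 CPM in untreated WT and 91.1, 91.1 and 89.3 in KO (-0.36, SE 0.101, adjusted p = 0.0629). FBL stood at 81.8% of the untreated mean (-0.29, SE 0.107, adjusted p = 0.170). RRS1 and POLR1A were the 2 above 0, at 0.11 and 0.04, and neither passed the test.

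How many members were called in KO depended on the fit. With the 2 groups fitted alone 14 were called lower, where 1259 of 15183 genes (8.29%) were called lower, and the DESeq2 Wald test called 3. Leaving out any one library of the 2 groups left 0. In the other lists, KO calls were TAF1B and TAF1D of the 9 RNA polymerase I genes (the latter -0.62, adjusted p = 0.0174), NOL10 of the 38 small subunit factors, POLR3G of the RNA polymerase III genes, and no large subunit factor, exosome or ribosomal protein gene, where edgeR gave 13, 1 and 6 genes lower at an unadjusted p under 0.05. Of the 79 ribosomal protein genes 78 were below 0 in KO with a median of -0.22, and in 66 the libraries did not overlap. Of the further factors, 35 of 38 small subunit and 36 of 39 large subunit genes were below 0, with medians of -0.17 and -0.21. TAF1B and NOL10 were named after their values were seen. The KO, DTC and DTEC fold changes share the untreated libraries, so a common sign is no independent evidence: LYAR, DDX10, NIP7 and FBL read -0.46, -0.45, -0.36 and -0.29 in KO and -2.96, -1.53, -1.58 and -2.72 in DTC.

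The proportions between partners of one complex were read as ratios. The ratio of 2 genes' counts within a library does not depend on how libraries are scaled, so 14 pairs of partners were compared, chosen after the fold changes had been seen. A ratio is compared here only between groups, since counts are not per length. In an exact two-sided permutation test of 3 libraries against 3, p cannot go below 0.1. Over the 56 tests made, the lowest adjusted p was 0.175, so none passed the threshold and none could.

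FBL counts per NOP56 count were 0.706, 0.646 and 0.619 in the untreated libraries, 0.397, 0.379 and 0.416 in DTC and 0.893, 1.01 and 1.18 in DTEC. The groups stood apart, with DTC lowest and DTEC highest, a log2 difference of -0.72 (SE 0.0686) and 0.64 (SE 0.128) from untreated WT. NOP58 per NOP56 was 0.311, 0.315 and 0.334 in untreated WT, 0.448, 0.405 and 0.428 in DTC and 0.415, 0.452 and 0.430 in DTEC. Both drug groups were above untreated WT and overlapped each other. BOP1 per PES1 was 0.768, 1.06 and 1.03 in untreated WT, 0.257, 0.416 and 0.341 in DTC and 0.329, 0.405 and 0.479 in DTEC, a log2 difference of -1.51 (SE 0.250) in DTC and -1.24 (SE 0.215) in DTEC. WDR12 per PES1 differed less, with geometric means of 0.169 in untreated WT, 0.195 in DTC and 0.226 in DTEC.

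Among the polymerase genes, UBTF per POLR1A had geometric means of 1.11 in untreated WT, 0.805 in DTC and 1.01 in DTEC. RRN3 per POLR1A went the other way, 0.704, 0.948 and 0.759. NOP10 per DKC1 was 0.116, 0.110 and 0.109 in untreated WT, 0.192, 0.485 and 0.361 in DTC and 0.163, 0.175 and 0.213 in DTEC. It was above untreated WT in every drug library, and among the DTC libraries it was lowest in replicate 1, a length-trend library. HEATR1 per UTP15 and NOB1 per PNO1 were paired for their difference and are given as descriptions. The first had geometric means of 3.62, 2.92 and 6.70 in untreated WT, DTC and DTEC, and the second 1.16, 0.802 and 2.33.

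**Figure D5:**
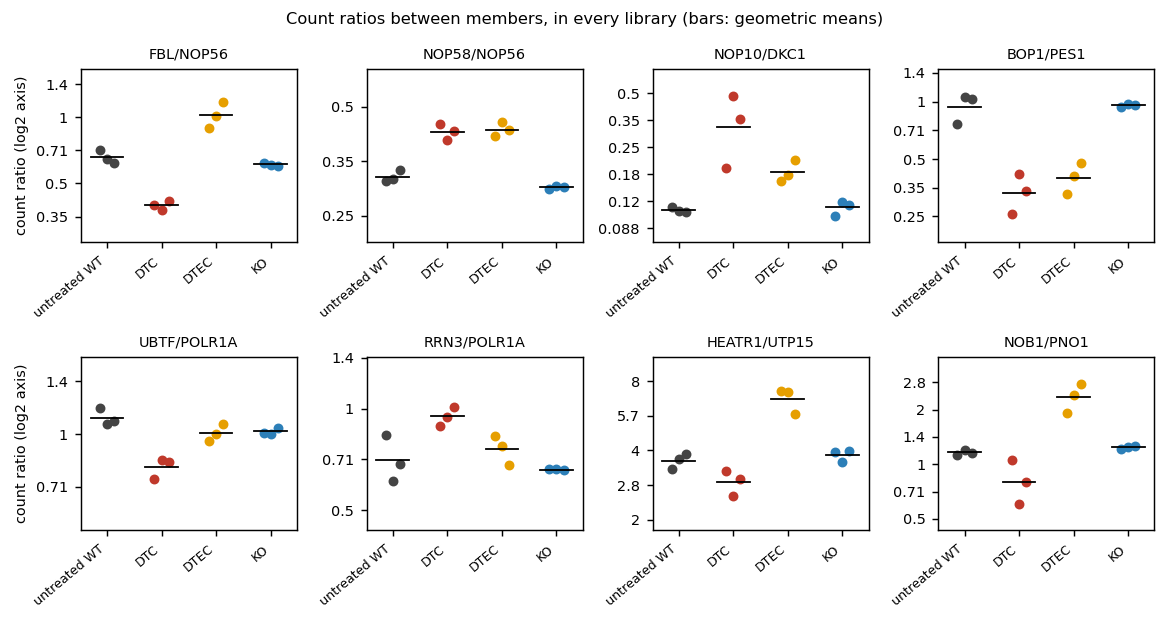
Ratio of the counts of 2 genes within each library (vertical axis, log2 scale) for 8 of the 14 pairs; points are libraries and bars the geometric means of 3. FBL/NOP56 is lowest in DTC and highest in DTEC, and BOP1/PES1 is low in both drug groups.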

How the data were processed

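RNA was measured in 12 libraries of PC9 cells (polyadenylated RNA, stranded kit, paired reads of 101 bases, 1 batch, per the labels). The deposited values were expected counts per gene, estimated read counts not scaled to depth; RSEM 1.3.1, Bowtie2 2.5.2, DESeq2 1.40.2 and GRCh38 stand in the submitters' processing notes, with no roles given. The annotation release is not given in the sources used here; symbols were found for 62700 of 62754 identifiers, and coordinates and exon lengths (union of exons) come from GENCODE 29. The strand setting of the counting is not given either, so reads of antisense or overlapping genes may be included. Of the 46 genes, 26 had whole values in all libraries and 5 in none.

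Values were rounded to whole counts and fitted in R 4.3.3 with edgeR 4.0.16 (limma 3.58.1): filterByExpr, TMM, 1 mean per group over all 12 libraries, robust quasi-likelihood tests, Benjamini-Hochberg over 17115 genes holding at least 99.9% of counts, called at 0.05. The biological coefficient of variation was 14.6%. Any 2 libraries had identical counts in at most 3.06% of genes. The script was run on simulated data first. Intervals from 3 libraries are wide, and counts carried no molecular identifiers.

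Alternatives were DESeq2 1.42.0 (size factors, Wald test), total-count and upper-quartile scaling and no count filter. A replicate block, compared groups alone and each library left out were run too. Leaving out both length-trend libraries and removing the exon length trend per library were added after seeing the data. The trend removed was a smoothed curve of log2 CPM deviations from the mean of all 12 libraries, over 9736 genes of at least 10 CPM. It thus included differences between groups. The length slopes of the libraries used the same genes, log2 CPM with an offset of 0.5 and deviations from each group's mean. The members, lists and comparisons were chosen with earlier results of these data known. Genes are named by rule: per role the 2 largest and the smallest change in DTC, and the 4 largest in KO; per other list the largest called change. Other genes named were singled out after their values were seen. Ratio pairs, comparison motifs and the FBL and MRTO4 stretches, which do not lie before the start, were added after values were seen. Of the 39 members with a window, 36 had at least 1 window that ended in a GENCODE 29 transcript of the same gene.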

Additional observations from a re-analysis of the deposited data

Results flagged for a closer look

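The effect of the drug on these genes differed between its 2 time points: in the test of DTEC against DTC itself, 40 of the 46 genes were called, all of them higher in DTEC. Both effects are measured against the same untreated WT libraries, and the test compares the drug groups directly. Of all genes 28.8% were called higher in it, and of the 7789 well-expressed genes 44.7%. Over the 15 alternative analyses 38 to 41 of the 46 were called higher and at most 1 lower, and the members' median rose above that of all genes by 0.68 to 0.81 on the log2 scale.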

How the results depend on the processing

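In DTC against untreated WT 44 to 46 members were called over 15 alternatives, in DTEC against untreated WT 37 to 45, in DTEC against DTC 38 to 42 and in KO against untreated WT 0 to 14. With total-count scaling the members' median was -1.32 in DTC, -0.74 in DTEC, 0.57 between DTC and DTEC and -0.10 in KO; with upper-quartile scaling it was -1.39, -0.80 and 0.59 in the first 3 comparisons; with the exon length trend removed it was -1.32 in DTC and -0.73 in DTEC. Those scalings move all genes: total counts put the median of all genes at 0.41 in DTC, 0.19 in DTEC and -0.20 between DTC and DTEC (upper quartile 0.34, 0.13 and -0.18, length trend removed 0.38, 0.19 and -0.16), and the share of higher genes among all calls went from 50.5% to 68.4% in DTC, 49.7% to 63.7% in DTEC, 51.9% to 37.4% between DTC and DTEC and 64.1% to 78.8% in KO; upper-quartile scaling gave 65.0% in DTC and 38.7% between DTC and DTEC, and removing the length trend 66.3%, 62.6% and 39.7% in the first 3 comparisons. Relative to the median of all genes, the members' median stayed between -1.78 and -1.63 in DTC, -0.95 and -0.90 in DTEC, 0.68 and 0.81 between them and -0.18 and -0.13 in KO.

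Members called in KO numbered 0 with DESeq2 size factors and with total counts, 2 without the count filter, 14 with the compared groups alone, 3 with the DESeq2 Wald test, 7 without both length-trend libraries (993 of 17456 genes called lower, against 265 of 17115 with all libraries), and 0 to 0 with each library left out, where 83 to 117 of all genes were called lower. In either direction 738 genes were called with all libraries, 1147 without the count filter, 1107 with the Wald test, 2656 with the compared groups alone, 2279 without both length-trend libraries and 321 to 426 with each library left out. Signs turned between DTC and DTEC for 4 genes, none of them called with all libraries and TMM scaling: NOP10 (-0.106 with total counts, -0.0980 with upper quartile, -0.249 without both length-trend libraries, -0.169 to 0.259 with single libraries left out, lowest without DTC replicate 1), NHP2 (-0.205 without both, -0.0142 to 0.426 with single libraries left out, lowest without DTEC replicate 3), UTP15 (-0.0152 with total counts, -0.0483 with the length trend removed) and NOL6 (-0.241 to 0.0405 with single libraries left out, highest without DTC replicate 1). NOP10 also turned without DTEC replicate 3 (-0.0322). In DTEC against untreated WT, removing the length trend gave 0.0720 for NOP10 and 0.0125 for NOB1. It also ended the calls of GAR1 in DTEC (adjusted p = 0.472) and of RRP12 between DTC and DTEC (0.0542). The cause was not tested. The replicate block called 46, 45, 41 and 2 members in the 4 comparisons; in DTEC it added RRN3 (adjusted p = 0.0410) and HEATR1 (0.0262), between DTC and DTEC PPAN (0.0151), and in KO LYAR (0.0136). Deviations of same-numbered libraries correlated at 0.08 to 0.23 for DTC and untreated WT and -0.04 to 0.20 for DTEC and untreated WT. The range was -0.04 to 0.28 for DTEC and DTC and 0.06 to 0.13 for KO and untreated WT. Differently numbered libraries gave -0.26 to 0.21, -0.19 to 0.20, -0.31 to 0.20 and -0.10 to 0.01 in the same order. In KO the same-numbered values were thus all the higher ones, and the other ranges overlapped. The main fit did not pair libraries by number, and whether they are paired was not tested.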
